A study of Mus musculus with 11 samples.

Results

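The nuclear-encoded genes of oxidative phosphorylation were examined in RNA-seq libraries of mouse splenic B cells. Members were the protein-coding nuclear genes whose GENCODE M21 symbol begins with Nduf, Sdha to Sdhd, Uqcr, Cox4 to Cox8 or Atp5, and 97 of the 48795 genes in the deposited table met this rule. By the complex named in the symbol there were 36 subunits of complex I, 8 complex I assembly factors (Ndufaf), 4 subunits of complex II, 4 complex II assembly factors (Sdhaf), 8 genes of complex III, 20 of complex IV (Ndufa4 and Ndufa4l2 counted here) and 17 of complex V. The rule used no measured value of these libraries, but it was chosen with earlier results of these data known.

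There were 11 libraries, all taken on day 10 after intravenous immunisation of female mice, 8 to 12 weeks old, with sheep red blood cells (SRBCs). Light zone (LZ) germinal center B cells were sorted from the spleens of 4 Myc_WT mice and 4 Myc_VD mice as B220+ and Fas+ cells that were CD86high and CXCR4low and lacked CD138, IgD and CD38. Myc_VD mice carry the Myc V-to-D allele in every cell, a valine-to-aspartic acid change that abolishes the binding of MYC to its partner MIZ1. Memory B cells (MBCs), sorted as B220+, CD38+ and CD273+ cells without CD138 and IgD, came from 3 of the same Myc_WT mice, mice 1, 3 and 4. The mouse names of the Myc_VD group share a prefix that no Myc_WT mouse has, so genotype and that prefix cannot be told apart. Values are TPM, a level per transcript length that sums to 1000000 in each library. The question for each comparison was how the genes of each respiratory complex differed from Myc_WT LZ B cells, in Myc_VD LZ B cells and in Myc_WT MBCs. Both comparisons used the same 4 Myc_WT LZ libraries.

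As background, oxidative phosphorylation takes place at the inner mitochondrial membrane. Complex I oxidises NADH and complex II oxidises succinate, both pass electrons to ubiquinone, complex III hands them to cytochrome c, complex IV reduces oxygen, and complex V, the ATP synthase, uses the resulting proton gradient to make ATP. Complexes I, III, IV and V combine subunits made from nuclear genes with subunits encoded by mitochondrial DNA, whereas complex II is entirely nuclear. Germinal center B cells selected in the LZ express MYC, which is known to drive cell growth and mitochondrial biogenesis, while MBCs are resting cells.

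The libraries differed in composition before any gene was compared. Ribosomal RNA (rRNA) genes, with those of mitochondrial DNA counted, took 35.7 to 44.5% of all TPM in Myc_WT LZ, 44.1 to 61.3% in Myc_VD LZ and 36.1 to 37.5% in MBCs. Since every library sums to the same total, a larger rRNA share lowers the TPM of all other genes, so levels are given both as deposited and after removal of the rRNA genes and rescaling to the same total. The number of genes above 0 was 15460 to 19537 in Myc_WT LZ, 13169 to 16421 in Myc_VD LZ, and 12983, 11527 and 16040 in the MBCs of mice 1, 3 and 4. Of the 97 members, 15 and 17 were listed at 0 in the sparse MBC libraries of mice 1 and 3, against 5 to 8 in each of the other 9 libraries. The 6 germinal center B cell markers summed to 526 to 712 TPM in Myc_WT LZ, 368 to 585 TPM in Myc_VD LZ and 97.2 to 162 TPM in MBCs. In the same order, the 5 memory B cell markers summed to 31.4 to 35.2, 15.9 to 32.9 and 380 to 547 TPM. Cd38, Pdcd1lg2, Cd80 and Ccr6 were higher in every MBC library than in Myc_WT LZ. Nt5e was not, at 6.8 to 11.5 TPM in MBCs and 10.8 to 13.4 TPM in Myc_WT LZ. Fas, Cd38 and Pdcd1lg2 (CD273) encode proteins used for the sort, so their levels are not independent of it.

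The promoters of the members are shown first because a part of them holds transcription factor motifs that the rule did not use. RefSeq promoter windows of GRCm38.p6, 250 bases before to 50 after each gene's start, were matched by symbol for 78 of the 97 members, and 20 of these 78 (25.6%) held the motif of NRF1, searched on both strands as GCGCA followed by any base and GCGC. The share was 11.6% of the windows of genes tested in either comparison and 4.78% of all 27025 windows. NRF1 is a transcription factor known for binding respiratory chain promoters. The ETS core CCGGAAG, the sequence type bound by GABPA, was in 25.6% of the members' windows, 20.9% of those of tested genes and 9.12% of all, and ATGGCG, the core bound by YY1, in 26.9%, 17.4% and 9.24%. The E-box CACGTG, bound by MYC with MAX, was in 6.41% of the members' windows, 10.6% of those of tested genes and 7.24% of all. A match describes letters and is not evidence of binding.
The 30 bases around the NRF1 motif, in capitals, are given below for 6 of these 20 members, 5′ to 3′ on the strand of the gene, to show the shared motif in genes of different complexes.
Ndufaf4: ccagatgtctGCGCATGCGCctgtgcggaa
Sdha: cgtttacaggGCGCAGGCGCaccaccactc
Sdhd: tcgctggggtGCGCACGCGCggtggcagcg
Cox6a1: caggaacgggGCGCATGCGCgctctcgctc
Atp5g2: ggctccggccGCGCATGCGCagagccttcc
Atp5k: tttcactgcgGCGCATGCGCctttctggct
These stretches lie upstream of the RefSeq start, at chr4:24897960-24897989 (plus strand), chr13:74350319-74350348, chr9:50603909-50603938, chr5:115349101-115349130, chr15:102671070-102671099 and chr5:108434430-108434459 (the last 5 on the minus strand). The capitals of Ndufaf4, Cox6a1, Atp5g2 and Atp5k read the same, and those of Sdha and Sdhd differ from these at the open position of the motif. Tested members with the NRF1 motif had a median log2 difference of -0.72 in Myc_VD against Myc_WT LZ (18 of 20 lower) and those matched without it -0.72 (53 of 54 lower). In MBCs against Myc_WT LZ the medians were -1.08 (17 of 20 lower) and -1.39 (50 of 54 lower). Over all genes tested, 9479 of 12869 were lower in Myc_VD LZ and 7323 of 13245 in MBCs.

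The members together took less of the RNA in Myc_VD LZ B cells and in MBCs than in Myc_WT LZ B cells. Their summed level was 9273, 11752, 12385 and 8564 TPM in the Myc_WT LZ libraries of mice 1 to 4, 8045, 7028, 6704 and 4858 TPM in the Myc_VD LZ libraries, and 4579, 5492 and 7008 TPM in the MBCs of mice 1, 3 and 4. Every Myc_VD and MBC library lay below every Myc_WT LZ library, with means of 10494 ± 1859.6 (SD, n = 4), 6659 ± 1329 (SD, n = 4) and 5693 ± 1227 TPM (SD, n = 3). After removal of the rRNA genes the sums were 16019.7, 19559, 19262 and 15439.5 in Myc_WT LZ, 14389.7, 13991, 13998 and 12559 in Myc_VD LZ and 7287, 8794 and 10972 in MBCs. The groups still did not overlap on this scale, and the ratio of means moved from 0.635 to 0.782 in Myc_VD LZ and from 0.543 to 0.513 in MBCs. As a share of the TPM of nuclear protein-coding genes, the members took 1.83 to 2.23% in Myc_WT LZ, 1.58 to 1.69% in Myc_VD LZ and 0.925 to 1.33% in MBCs. In these bulk libraries a change in the level per cell and a change in the mixture of cells cannot be told apart.

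The 13 mitochondrially encoded subunits of the same complexes, transcribed from mitochondrial DNA, were at a higher level in both other groups. Their summed TPM was 10618 to 17636 in Myc_WT LZ, 19491 to 23492 in Myc_VD LZ and 23852 to 38204 in MBCs. The ratio of mitochondrially encoded to nuclear members within a library, which no rescaling of the library changes, was 1.81, 0.918, 0.857 and 2.06 in Myc_WT LZ, 2.42, 3.34, 3.24 and 4.84 in Myc_VD LZ, and 7.37, 6.96 and 3.40 in the MBCs of mice 1, 3 and 4. Both other groups lay above every Myc_WT LZ library. All 13 mitochondrially encoded genes were higher in Myc_VD than in Myc_WT LZ (median log2 difference 0.68, 0 past the adjusted threshold), and 12 of 13 were higher in MBCs (median 0.93), of which 7 passed (4.17% of all genes passed higher), among them mt-Co1, the catalytic subunit of complex IV (1.47 ± 0.29 (SE), limma adjusted p = 0.019). Without rRNA genes 4 of them passed in MBCs (3.85% of all genes) and 0 in Myc_VD.

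**Figure D1:**
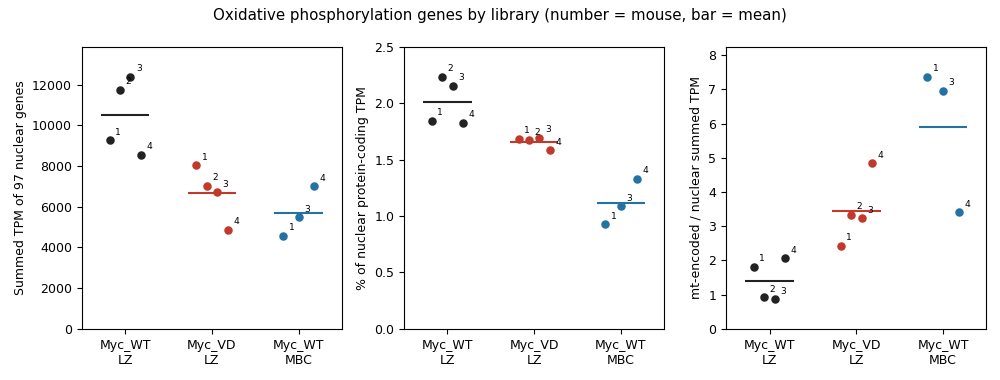
Each point is 1 library, numbered by mouse, with a bar at the group mean: the summed TPM of the 97 genes (left), their percent of nuclear protein-coding TPM (middle) and the ratio of mitochondrially encoded to nuclear summed TPM (right). Myc_WT LZ libraries lie above all others in the left and middle panels and below all others in the right panel.

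Between the genotypes, 89 of the 97 members reached a mean of 1 TPM and were tested (limma on log2(TPM + 1), Benjamini-Hochberg adjustment over 12869 genes). The other 8, all in complex IV, were Cox4i2, Cox6a2, Cox6b2, Cox7a1, Cox7b2, Cox8b, Cox8c and Ndufa4l2. Of the 89, 86 were lower and 3 higher in Myc_VD LZ, with a median log2 difference of -0.72 against -0.31 over all genes tested. Of all 12869 genes, 9479 were lower and 3390 higher, which is also the background for the counts by complex below. No member passed the adjusted threshold in either direction, where 0.0389% of all genes passed lower and 0.00777% higher. At an unadjusted p under 0.05, 48 members were lower (15.7% of all genes) and 0 higher (1.24%), and in 25 every Myc_VD library was below every Myc_WT library (9.16%). As shares of the 89 these were 53.9% and 28.1%.

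After removal of the rRNA genes the median over all genes went from -0.31 to -0.05 and that of the members from -0.72 to -0.43, so the gap between them was 0.41 and 0.38 on the log2 scale. The members then split into 73 lower and 16 higher, with 25 lower at an unadjusted p under 0.05 (6.69% of all genes), 1 higher (4.96%), 0 past the adjusted threshold and 11 without overlap between the groups (3.94%). All 12863 genes tested on this scale split into 6955 lower and 5908 higher. Among the genes described below, Atp5g1, Cox8a, Ndufa10, Ndufa12, Ndufaf4, Ndufs1, Ndufs8, Sdhc and Uqcrc1 were below 0 in this comparison as deposited and above 0 without rRNA genes. Among nuclear protein-coding genes alone the medians were 0.02 over all genes and -0.36 over the members. On each of these 3 scales 72 of the 89 members lay below the median of all genes. Leaving out Myc_VD mouse 1 gave 6 members past the adjusted threshold, Atp5f1, Atp5l, Ndufa9, Ndufb8, Ndufv2 and Sdhd, all lower, where 1.88% of all genes passed lower. Leaving out any of the other 7 libraries gave 0.

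Between cell types, the same 89 members were tested over 13245 genes, and 80 were lower and 9 higher in MBCs than in Myc_WT LZ, with a median log2 difference of -1.29 against -0.14 over all genes. Of all 13245 genes, 7323 were lower and 5922 higher. Of the members, 19 fell past the adjusted threshold, which is 21.3% of those tested where 5.04% of all genes passed lower, and 0 members rose where 4.17% of all genes did. The 19 were Ndufa2, Ndufa12, Ndufs4, Ndufv2, Ndufaf7, Ndufaf8, Uqcr10, Cox6c, Cox7a2, Ndufa4, Atp5e, Atp5f1, Atp5g2, Atp5g3, Atp5j2, Atp5k, Atp5l, Atp5mpl and Atp5o. At an unadjusted p under 0.05, 51 members were lower (15.8% of all genes) and 0 higher (11.3%), and in 42 all MBC libraries were below all LZ libraries (14.4%). After removal of the rRNA genes 23 fell (6.18% of all genes), 52 were lower at an unadjusted p under 0.05 (18.0%) and 48 did not overlap (17.1%), with medians of -1.48 for the members and -0.26 for all genes.

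The number of members that fell in MBCs depended on the fit and on single libraries. With the mouse as a replicate block, in the 3 mice that gave both libraries, 4 members fell, Atp5g2, Atp5k, Atp5mpl and Uqcr10, and all 4 were among the 19. The share of all genes that fell was then 0.897%. The same 6 libraries without the block, that is without the LZ library of mouse 2, gave 3 members and 1.04% of all genes. Leaving out the LZ library of mouse 1, 2, 3 or 4 left 4, 3, 4 and 5, with Atp5g2, Atp5l and Atp5o in each set. In these fits 1.31, 1.04, 1.03 and 2.00% of all genes fell. Leaving out the MBC library of mouse 1 or 3 gave 17 (4.43 and 5.90% of all genes), and leaving out that of mouse 4 gave 38 (14.0%). Without both sparse libraries, of mice 1 and 3, 12 fell (4.13% of all genes), of which 9 were among the 19, and the median difference was -0.62 against 0.10 over all genes. Within each mouse, 71, 78 and 61 of the 89 members had a lower value in the MBC than in the LZ library of mice 1, 3 and 4, with medians of -1.05, -2.04 and -0.32 against -0.02, -0.64 and 0.23 over all genes, and 50 were lower in all 3 mice, as were 20.5% of all genes.

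Markers of other cell types differed between the groups. The 4 erythroid markers summed to 31.7 to 107 TPM in Myc_WT LZ and to 4.74 to 4298 TPM in MBCs, with Hbb-bs at 2609 TPM in mouse 3 and at most 20.7 TPM in mice 1 and 4. The 4 myeloid markers summed to 7.69 to 15.3 TPM in LZ and 36.4 to 178 TPM in MBCs, the 4 T cell markers to 0.11 to 2.81 and 0 to 25.8 TPM, and the 3 dark zone markers, which include cell cycle genes, to 367 to 768 and 121 to 225 TPM. In Myc_VD LZ the erythroid sum was 37.4 to 253 TPM and the myeloid sum 10.9 to 18.0 TPM. The T cell sum there was 0 to 11.1 TPM and the dark zone sum 449 to 811 TPM. The median difference of the members was -1.01 without the MBC library of mouse 3, and the part of the other cell types in the results was not tested.

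**Figure D2:**
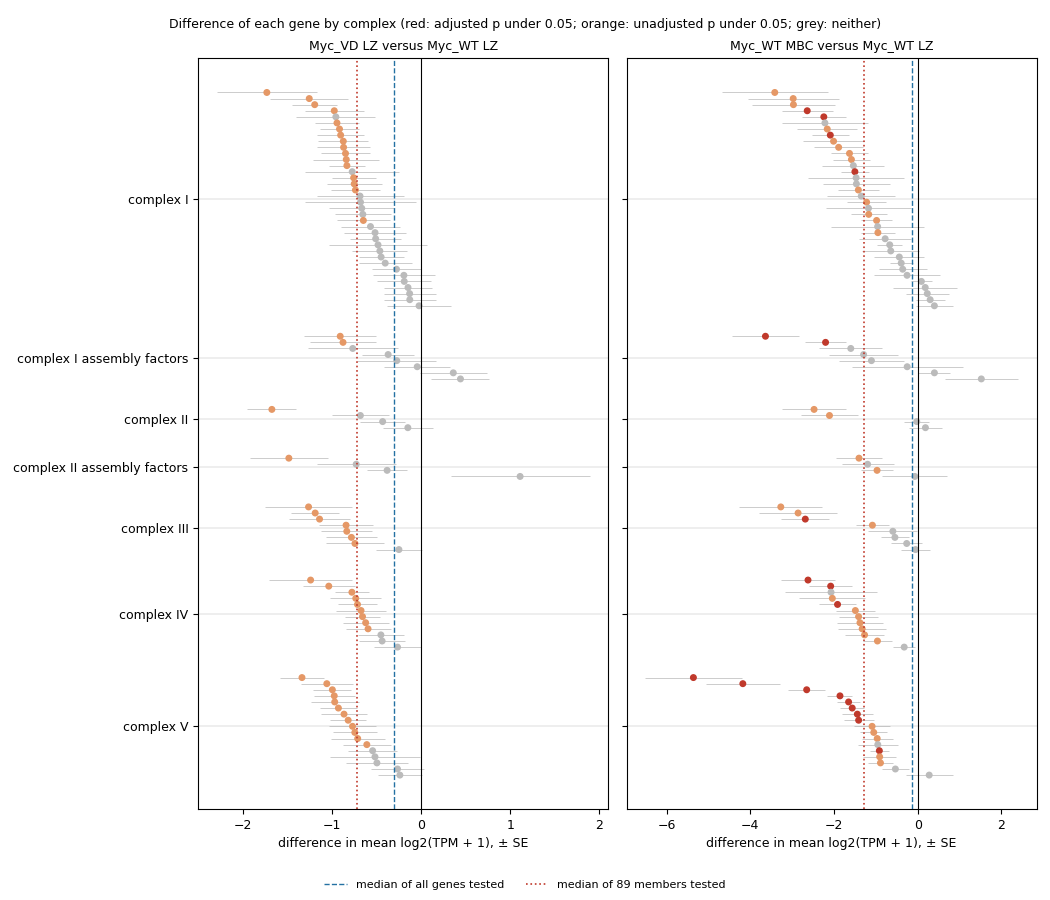
Each point is 1 of the 89 tested genes, by complex, at its difference in mean log2(TPM + 1) from Myc_WT LZ with its SE, for Myc_VD LZ (left) and MBCs (right). The dashed line is the median of all genes tested (-0.31 and -0.14) and the dotted line that of the members (-0.72 and -1.29), with red for an adjusted p under 0.05 (0 on the left, 19 on the right), orange for an unadjusted p under 0.05 and grey for neither.

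Complex I, the NADH dehydrogenase, had 36 members, all tested. All 36 were lower in Myc_VD LZ as deposited (median -0.68, 16 at an unadjusted p under 0.05, 8 without overlap), and 29 of 36 after removal of the rRNA genes (median -0.42, 9 and 4). Over all genes these shares were 15.7% and 9.16% as deposited and 6.69% and 3.94% without rRNA genes. In MBCs 31 were lower and 5 higher (median -1.29), and 4 fell past the adjusted threshold (5.04% of all genes). Their summed TPM was 1762, 2258, 2366 and 1649 in Myc_WT LZ, 1519, 1436, 1475 and 929 in Myc_VD LZ and 1039.8, 1194 and 1523 in MBCs. The summed level without rRNA genes overlapped between the genotypes and did not overlap between MBCs and LZ.

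Ndufs and Ndufv genes encode the subunits of complex I that hold the flavin and the iron-sulfur clusters, and also some accessory subunits. Ndufv2, an iron-sulfur subunit of the NADH-oxidising module (ENSMUSG00000024099, chr17:66078638-66101559 on GRCm38), was at 51.5, 63.7, 65.6 and 55.4 TPM in Myc_WT LZ, 20.2 to 51.8 TPM in Myc_VD LZ and 2.65, 7.48 and 27.4 TPM in MBCs. MBCs lay below all LZ libraries of both genotypes for mice 1 and 3, while mouse 4 lay among the Myc_VD values. Ndufv2 fell in MBCs by 2.64 on the log2 scale (SE 0.61, limma adjusted p = 0.0312), and its difference in Myc_VD was -0.88 ± 0.28 (SE) (adjusted p = 0.17). Ndufs4, an accessory subunit whose loss causes Leigh syndrome, was at 30.0, 38.6, 28.3 and 22.4 TPM in Myc_WT LZ and 3.38, 2.94 and 14.1 TPM in MBCs and fell (-2.24 ± 0.53 (SE), limma adjusted p = 0.0332).

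The other Ndufs and Ndufv genes named here did not pass the adjusted threshold in either comparison. Ndufs1, the largest iron-sulfur subunit, was at 27.1, 47.3, 54.1 and 31.7 TPM in Myc_WT LZ, 26.7, 51.1, 37.9 and 29.4 TPM in Myc_VD LZ and 49.2, 92.7 and 29.1 TPM in MBCs, with differences of -0.13 ± 0.29 (SE) and 0.40 ± 0.43 (SE). Ndufs3 was at 44.4, 57.5, 49.9 and 57.7 TPM in Myc_WT LZ and 38.4, 23.1, 24.4 and 39.1 TPM in Myc_VD LZ, without overlap (exact permutation p = 0.0286, two-sided, the smallest that 4 against 4 libraries allow), and at 59.2, 58.4 and 49.1 TPM in MBCs, which overlapped Myc_WT LZ. Ndufs7 and Ndufs8, both iron-sulfur subunits, had differences of -0.52 ± 0.35 (SE) and -0.19 ± 0.30 (SE) in Myc_VD and of 0.30 ± 0.35 (SE) and -2.98 ± 1.08 (SE) in MBCs, where Ndufs8 was listed at 0 in mouse 3. Ndufv1, the flavin-binding subunit, was at 39.5, 39.9, 49.0 and 34.5 TPM in Myc_WT LZ and 5.52, 5.29 and 33.0 TPM in MBCs (-1.89 ± 0.59 (SE), limma adjusted p = 0.0778).

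Among the accessory subunits, Ndufa2 and Ndufa12 fell in MBCs (-1.50 ± 0.33 (SE) and -2.09 ± 0.45 (SE), limma adjusted p = 0.0265 and 0.0244). Ndufa12 was at 77.1, 81.7, 103 and 48.8 TPM in Myc_WT LZ, 59.3, 80.5, 72.3 and 42.1 TPM in Myc_VD LZ and 16.4, 8.98 and 32.0 TPM in MBCs. The Myc_VD values overlapped those of Myc_WT, and the MBC values lay below all of them. Ndufb6 had the lowest difference of all members in Myc_VD (-1.73 ± 0.56 (SE), adjusted p = 0.17), from 14.6, 43.7, 28.8 and 30.9 TPM in Myc_WT LZ to 12.3, 1.28, 12.0 and 12.7 TPM in Myc_VD LZ, where mouse 2 stood far below the other 3. Ndufa1 had a difference of -3.42 ± 1.26 (SE) in MBCs (limma adjusted p = 0.12), with 10.6, 0 and 110.4 TPM in mice 1, 3 and 4 against 92.8 to 145 TPM in Myc_WT LZ, so that mouse 4 lay within the LZ range. Ndufab1, the mitochondrial acyl carrier protein and the second most abundant complex I member, was at 88.0, 132, 149.9 and 95.0 TPM in Myc_WT LZ, 69.8, 35.4, 90.2 and 64.1 TPM in Myc_VD LZ and 74.2, 91.2 and 52.8 TPM in MBCs, with no adjusted p below the threshold. Ndufa10 had a difference near 0 in Myc_VD (-0.02 ± 0.36 (SE)), which was 0.29 without rRNA genes.

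Reads of Ndufb4 may be shared with a near-identical copy. Ndufb4 itself was listed at 5.84 to 13.3 TPM in Myc_WT LZ, while its copy Ndufb4c, identical over 390 aligned bases, was at 49.0, 78.2, 59.2 and 73.0 TPM there, 20.5, 53.5, 27.1 and 16.8 TPM in Myc_VD LZ and 57.6, 1.60 and 27.99 TPM in MBCs. The summed copies also exceeded 10% of the gene's own mean level for Uqcrb, Ndufab1, Atp5l, Ndufa7 and Atp5g2. The levels of these 6 genes are therefore uncertain. Adding the copies' TPM to their genes left 0 members past the adjusted threshold in Myc_VD and the same 19 in MBCs.

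The 8 complex I assembly factors, which build the complex and are not part of it, are given next. In Myc_VD LZ 6 were lower and 2 higher with a median of -0.32, close to that of all genes (-0.31). Without rRNA genes 5 were lower and 3 higher (median -0.06). Ndufaf8 was at 37.6, 30.4, 47.7 and 22.7 TPM in Myc_VD LZ against 43.2, 17.4, 22.7 and 20.3 TPM in Myc_WT LZ (0.44 ± 0.33 (SE), limma adjusted p = 0.52). In MBCs it fell (-3.64 ± 0.79 (SE), limma adjusted p = 0.026), being listed at 0 in mice 1 and 3 and at 7.40 TPM in mouse 4, so the size of this difference depends on the pseudocount. Ndufaf7, a methyltransferase, fell from 11.7, 10.4, 12.4 and 5.49 TPM to 1.53, 1.03 and 1.37 TPM (-2.20 ± 0.48 (SE), limma adjusted p = 0.0264), below all Myc_WT LZ values in each MBC library. Ndufaf5 had the highest difference in MBCs (1.52 ± 0.87 (SE), limma adjusted p = 0.30), with 10.2, 134 and 10.6 TPM in mice 1, 3 and 4 against 4.59 to 13.7 TPM in LZ. Ndufaf2 was at 0 in MBC mouse 1 and at 129 TPM in mouse 3, while mouse 4 lay within the 10.8 to 17.7 TPM of Myc_WT LZ. Ndufaf3 and Ndufaf4 had differences of 0.40 ± 0.38 (SE) and -1.60 ± 0.75 (SE) in MBCs.

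Complex II, succinate dehydrogenase, also a Krebs cycle enzyme, had 4 members, all lower in Myc_VD LZ as deposited (median -0.56) and 3 of 4 without rRNA genes (median -0.25). In MBCs 3 of 4 were lower (median -1.07). Their summed TPM in Myc_VD LZ lay only just below that of every Myc_WT LZ library as deposited (highest 179.04 against lowest 179.17 TPM), and the genotypes overlapped without rRNA genes. Sdhd, a membrane anchor subunit (ENSMUSG00000000171, chr9:50596357-50603812 on GRCm38), was at 51.6, 87.0, 90.5 and 54.4 TPM in Myc_WT LZ, 26.6, 23.6, 14.8 and 19.8 TPM in Myc_VD LZ and 134, 71.8 and 49.0 TPM in MBCs. All Myc_VD libraries lay below all Myc_WT LZ libraries, and MBCs did not. The Myc_VD difference was -1.68 ± 0.28 (SE), the smallest limma adjusted p among the members at 0.0634 (exact permutation p = 0.0286, two-sided), and it was -1.39 after removal of the rRNA genes (adjusted p = 0.0916). It passed the threshold where only genes whose mean reached 5 TPM were tested. In MBCs the difference was 0.18 ± 0.39 (SE) (limma adjusted p = 0.80).

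Sdha, the flavoprotein, was at 95.0, 76.5, 106 and 68.4 TPM in Myc_WT LZ, 77.7, 82.6, 45.8 and 52.9 TPM in Myc_VD LZ and 57.3, 101 and 102 TPM in MBCs, overlapping in both comparisons. Sdhb, the iron-sulfur subunit, was at 69.0, 56.0, 72.9 and 37.1 TPM in Myc_WT LZ, 46.3, 52.7, 23.9 and 25.7 TPM in Myc_VD LZ and 27.3, 1.38 and 15.7 TPM in MBCs, all MBC libraries lying below all Myc_WT LZ libraries (-2.48 ± 0.76 (SE), limma adjusted p = 0.0753). Sdhc, the other membrane anchor, was at 22.8, 23.9, 35.8 and 19.4 TPM in Myc_WT LZ and 1.24, 3.84 and 18.8 TPM in MBCs (-2.11 ± 0.69 (SE), limma adjusted p = 0.0893). Within the summed TPM of the 4 subunits, Sdhd made up 21.6 to 35.8% in Myc_WT LZ, 12.6 to 16.7% in Myc_VD LZ and 26.4 to 61.0% in MBCs, and Sdhb 20.7 to 29.0%, 20.4 to 29.4% and 0.777 to 12.4%. These shares do not depend on the scaling of a library.

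None of the 4 complex II assembly factors passed the adjusted threshold in either comparison. Sdhaf2, which attaches the flavin to Sdha, was at 25.8 to 33.7 TPM in Myc_WT LZ, 19.7 to 25.9 TPM in Myc_VD LZ and 9.03 to 24.1 TPM in MBCs. Sdhaf4, which aids the assembly of Sdha with Sdhb, was at 6.87, 8.94, 11.2 and 8.90 TPM in Myc_WT LZ and 1.83, 0.68, 4.44 and 4.89 TPM in Myc_VD LZ (-1.49 ± 0.44 (SE), limma adjusted p = 0.15), without overlap. Sdhaf3 had the largest positive difference of the members in Myc_VD (1.11 ± 0.78 (SE), adjusted p = 0.49), from 35.2 TPM in mouse 2 and 9.76 TPM in mouse 3 against 0.86 to 4.45 TPM in Myc_WT LZ, and mice 1 and 4 lay within the Myc_WT range.

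Complex III, the cytochrome bc1 complex, had 8 members by the symbol rule, which leaves out its subunit Cyc1. All were lower in Myc_VD LZ as deposited (median -0.84, 7 at an unadjusted p under 0.05, 3 without overlap), and 7 of 8 without rRNA genes (median -0.53, 2 at that p, 0 without overlap). The shares of all genes were again 15.7% and 9.16%, and 6.69% and 3.94% without rRNA genes. All 8 were lower in MBCs (median -0.84), and 1 fell past the threshold (5.04% of all genes). Uqcr10, a small accessory subunit (ENSMUSG00000059534, chr11:4701973-4704342 on GRCm38), was at 185, 217, 176 and 200.0 TPM in Myc_WT LZ, 152, 82.8, 165 and 65.9 TPM in Myc_VD LZ and 9.59, 31.1 and 80.6 TPM in MBCs. Both other groups lay below Myc_WT LZ, and it fell in MBCs (-2.69 ± 0.58 (SE), limma adjusted p = 0.0248).

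Uqcrh, the hinge protein and the most abundant complex III gene, was at 154, 358, 285 and 259 TPM in Myc_WT LZ, 148, 171, 184 and 83.1 TPM in Myc_VD LZ and 139, 150.0 and 245 TPM in MBCs, overlapping in both comparisons. Uqcrfs1, the Rieske iron-sulfur protein, was at 41.0, 41.6, 56.3 and 30.2 TPM in Myc_WT LZ and 26.6, 4.17, 28.1 and 22.1 TPM in Myc_VD LZ (-1.27 ± 0.49 (SE), limma adjusted p = 0.23), with mouse 2 the lowest. The core proteins Uqcrc1 and Uqcrc2 had differences of -0.25 ± 0.26 (SE) and -0.74 ± 0.32 (SE) in Myc_VD and -0.26 ± 0.36 (SE) and -0.05 ± 0.35 (SE) in MBCs. Uqcr11 was listed at 0 in MBC mouse 1 and at 8.64 and 30.3 TPM in mice 3 and 4, against 67.7 ± 24.3 TPM in Myc_WT LZ (SD, n = 4) and below every library there (-3.27 ± 0.99 (SE), limma adjusted p = 0.0736).

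Complex IV, cytochrome c oxidase, had 20 members, of which 12 were tested. All 12 were lower in Myc_VD LZ (median -0.67, 9 at an unadjusted p under 0.05, 5 without overlap) and 11 of 12 without rRNA genes (median -0.36, 3 and 1). Of all genes 15.7% and 9.16% did so as deposited, and 6.69% and 3.94% without rRNA genes. All 12 were lower in MBCs (median -1.45), the lowest median among the subunit groups on this scale, and 3 fell past the threshold (5.04% of all genes). The summed TPM was 1964, 2775, 2719.8 and 2116 in Myc_WT LZ, 1748, 1629, 1636 and 1088 in Myc_VD LZ and 929.8, 887 and 1531 in MBCs. MBCs stayed below LZ without rRNA genes (1479.9, 1420.2 and 2397 against 3394, 4617, 4230.0 and 3816 in rescaled TPM), where Myc_VD and Myc_WT LZ overlapped.

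Cox4i1, the ubiquitous form of subunit 4, was the most abundant nuclear subunit of complex IV, at 297, 445, 378 and 305 TPM in Myc_WT LZ, 205, 219.9, 213 and 182 TPM in Myc_VD LZ and 58.7, 251 and 206 TPM in MBCs. Both other groups lay below Myc_WT LZ (-0.78 ± 0.19 (SE) and -1.27 ± 0.46 (SE), limma adjusted p = 0.11 and 0.12). Cox5a and Cox5b had differences of -0.60 ± 0.25 (SE) and -0.68 ± 0.28 (SE) in Myc_VD and of -2.04 ± 0.79 (SE) and -2.07 ± 1.10 (SE) in MBCs, where mouse 3 was at 5.74 and 2.33 TPM and the other mice between 69.2 and 130.9 TPM.
Cox6c, a small membrane subunit, fell in MBCs from 164, 356, 294 and 240.5 TPM to 36.1, 36.8 and 154 TPM (-2.08 ± 0.51 (SE), limma adjusted p = 0.0389), with Myc_VD LZ at 156, 163, 111 and 80.7 TPM, also below Myc_WT LZ. Ndufa4, long assigned to complex I and now known as a complex IV subunit, fell in MBCs (-1.92 ± 0.45 (SE), limma adjusted p = 0.032), with 62.3, 19.2 and 78.1 TPM against 141, 209, 186 and 170.5 TPM.

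Several complex IV subunits have a widely expressed and a tissue-restricted gene, and the tissue-restricted gene was at or near 0 in these B cells. Cox4i2, an oxygen-responsive isoform of lung, was 0 in 10 of 11 libraries and 0.26 TPM in Myc_VD mouse 4. Cox6a2, of heart and muscle, was listed at 4.76 TPM in MBC mouse 1 and at 0 in the other 10 libraries, against 193 to 313 TPM for Cox6a1 in Myc_WT LZ. Cox8b, Cox8c and Cox7b2 were listed at 0 in all 11, while Cox8a was at 104 to 168 TPM in Myc_WT LZ, 65.3 to 135 TPM in Myc_VD LZ and 16.1 to 111 TPM in MBCs. Cox6b2, the testis form, was at 1.59, 1.22, 1.28 and 2.04 TPM in Myc_WT LZ, at 0 in all 3 MBC libraries and in 3 of 4 Myc_VD libraries, and at 1.13 TPM in the remaining one. Its main counterpart Cox6b1 was at 156, 164, 192 and 143 TPM, 108, 184, 133 and 76.9 TPM and 92.1, 23.5 and 100.3 TPM. Ndufa4l2, a hypoxia-induced relative of Ndufa4, reached 3.20 TPM in Myc_VD mouse 2 and 0.12 TPM in Myc_WT LZ mouse 3 and was 0 elsewhere.

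Subunit 7a has 3 related genes. Cox7a2, the common form (ENSMUSG00000032330, chr9:79755361-79759878 on GRCm38), was at 43.3, 78.3, 62.1 and 50.6 TPM in Myc_WT LZ, 43.1, 7.06, 36.7 and 26.2 TPM in Myc_VD LZ and 12.9, 1.86 and 20.1 TPM in MBCs and fell in MBCs (-2.62 ± 0.64 (SE), limma adjusted p = 0.0369). Cox7a2l, a relative of Cox7a2 linked to supercomplexes of complexes III and IV, was at 214, 301, 302 and 244 TPM, 169, 181, 185 and 113 TPM and 144, 246 and 259 TPM, with a difference of -0.32 ± 0.26 (SE) in MBCs (limma adjusted p = 0.47). Myc_VD libraries lay below all Myc_WT LZ libraries for both genes, and MBC libraries for Cox7a2 alone. Of the summed TPM of Cox7a1, Cox7a2 and Cox7a2l, Cox7a2 made up 16.8 to 20.6% in Myc_WT LZ, 3.75 to 20.3% in Myc_VD LZ and 0.749 to 8.27% in MBCs. Cox7a1, the muscle form, was at 0 to 1.54 TPM in all libraries.

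Complex V, the ATP synthase, took the largest part of the members' TPM, 43.1 to 48.6% in Myc_WT LZ, 40.4 to 48.2% in Myc_VD LZ and 42.1 to 45.7% in MBCs, and the 3 groups overlapped in this share. The share of complex I was larger in MBCs (21.7 to 22.7%) than in Myc_WT LZ (19.0 to 19.3%), as was that of complex II (2.65 to 4.81% against 2.07 to 2.57%), without overlap. The shares of complexes III and IV overlapped between MBCs and Myc_WT LZ. Of its 17 members all were lower in Myc_VD LZ (median -0.77, 12 at an unadjusted p under 0.05, 7 without overlap) and 15 without rRNA genes (median -0.46, 9 and 5). The background over all genes was 15.7% and 9.16%, and 6.69% and 3.94% without rRNA genes. In MBCs 16 of 17 were lower (median -1.09), and 9 fell past the threshold (5.04% of all genes). The summed TPM was 4504, 5259, 5928 and 3692 in Myc_WT LZ, 3877, 3232, 2710.3 and 2303 in Myc_VD LZ and 1926, 2512 and 3133 in MBCs. Myc_WT and Myc_VD LZ overlapped in this sum and MBCs lay below Myc_WT LZ. Over nuclear protein-coding genes the sum also overlapped between the genotypes, but not once Gm10800, at 29505 TPM in Myc_WT LZ mouse 4 and at most 928 TPM elsewhere, was left out.

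The head of the ATP synthase holds its catalytic sites. Atp5b, the catalytic beta subunit and the most abundant member, was at 1798, 1755, 2382 and 1117 TPM in Myc_WT LZ, 1675, 1284, 861.18 and 995 TPM in Myc_VD LZ and 734, 1424 and 1549 TPM in MBCs, overlapping in both comparisons (-0.55 ± 0.27 (SE) and -0.53 ± 0.32 (SE)). Atp5a1, the alpha subunit, was at 401, 375, 502 and 260.5 TPM in Myc_WT LZ and 120.00, 181 and 269 TPM in MBCs (-1.05 ± 0.32 (SE), limma adjusted p = 0.0737), and it passed the threshold without rRNA genes (-1.14, adjusted p = 0.0456). Atp5c1, the gamma subunit that turns within the head, was at 223, 334, 349.8 and 203 TPM in Myc_WT LZ, 187, 119, 156 and 78.6 TPM in Myc_VD LZ and 108, 148 and 191 TPM in MBCs, with both other groups below Myc_WT LZ. Atp5e, the epsilon subunit of the central stalk, fell in MBCs from 291, 539, 337 and 404 TPM to 179.6, 114 and 103 TPM (-1.57 ± 0.29 (SE), limma adjusted p = 0.0137). Atp5o, which links head and side stalk, fell from 107, 142, 163 and 95.9 TPM to 35.9, 44.5 and 36.7 TPM (-1.65 ± 0.27 (SE), limma adjusted p = 0.0095), with Myc_VD at 67.0, 95.5, 67.6 and 48.3 TPM.

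Atp5mpl and Atp5k, small subunits of the membrane part, had the lowest differences of all members in MBCs. Atp5l, subunit g (ENSMUSG00000038717, chr9:44912557-44920742 on GRCm38), was at 167, 298, 263 and 231 TPM in Myc_WT LZ, 117, 67.8, 110.1 and 82.3 TPM in Myc_VD LZ and 66.1, 45.4 and 87.0 TPM in MBCs, so that both other groups lay below Myc_WT LZ. It fell in MBCs (-1.86 ± 0.30 (SE), limma adjusted p = 0.00856), and its Myc_VD difference was -1.34 ± 0.25 (SE) (adjusted p = 0.0707; exact permutation p = 0.0286, two-sided). Atp5mpl, a small proteolipid subunit (ENSMUSG00000021290, chr12:111961375-111966977 on GRCm38), was at 88.3, 175, 132 and 175 TPM in Myc_WT LZ and 48.8, 90.8, 71.0 and 74.7 TPM in Myc_VD LZ. In MBCs Atp5mpl was listed at 0 in mice 1 and 3 and at 37.3 TPM in mouse 4 (-5.36 ± 1.15 (SE), limma adjusted p = 0.0249), so the size of this difference depends on the pseudocount. Atp5k, subunit e, was at 87.9, 119, 127 and 87.3 TPM, 58.0, 58.8, 55.8 and 60.9 TPM and 0.91, 1.77 and 35.6 TPM in the same order and fell in MBCs (-4.18 ± 0.89 (SE), limma adjusted p = 0.0244). The MBC values of mouse 4, the library with the most genes above 0, were the highest of the 3 for Atp5l, Atp5mpl and Atp5k and remained below every Myc_WT LZ value. Atp5s, counted in complex V by its symbol alone, had a difference of 0.27 ± 0.56 (SE) in MBCs, with 20.7 TPM in mouse 1 and at most 5.38 TPM in mice 3 and 4.

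The c-ring of the ATP synthase is made of 1 protein encoded by 3 genes, Atp5g1, Atp5g2 and Atp5g3, that differ in the import sequence. Atp5g2 (ENSMUSG00000062683, chr15:102662864-102672352 on GRCm38) was at 149.9, 189, 234 and 185 TPM in Myc_WT LZ, 96.8, 113, 96.0 and 71.4 TPM in Myc_VD LZ and 13.3, 30.9 and 57.4 TPM in MBCs and fell in MBCs (-2.65 ± 0.44 (SE), limma adjusted p = 0.00967). Atp5g3 was at 176, 178, 227 and 144 TPM, 88.9, 98.2, 115 and 75.3 TPM and 84.1, 98.0 and 101 TPM in the same order and also fell in MBCs (-0.92 ± 0.23 (SE), limma adjusted p = 0.0412). Atp5g1 was at 219, 171, 256 and 129.5 TPM, 183, 246, 109 and 120.3 TPM and 163, 61.3 and 86.8 TPM and overlapped in both comparisons. Of their summed TPM, Atp5g2 made up 27.5 to 40.3% in Myc_WT LZ, 24.7 to 30.0% in Myc_VD LZ and 5.12 to 23.4% in MBCs, where MBCs did not overlap Myc_WT LZ, and Atp5g1 made up 28.3 to 40.3%, 34.0 to 53.8% and 32.2 to 62.6%.

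**Figure D3:**
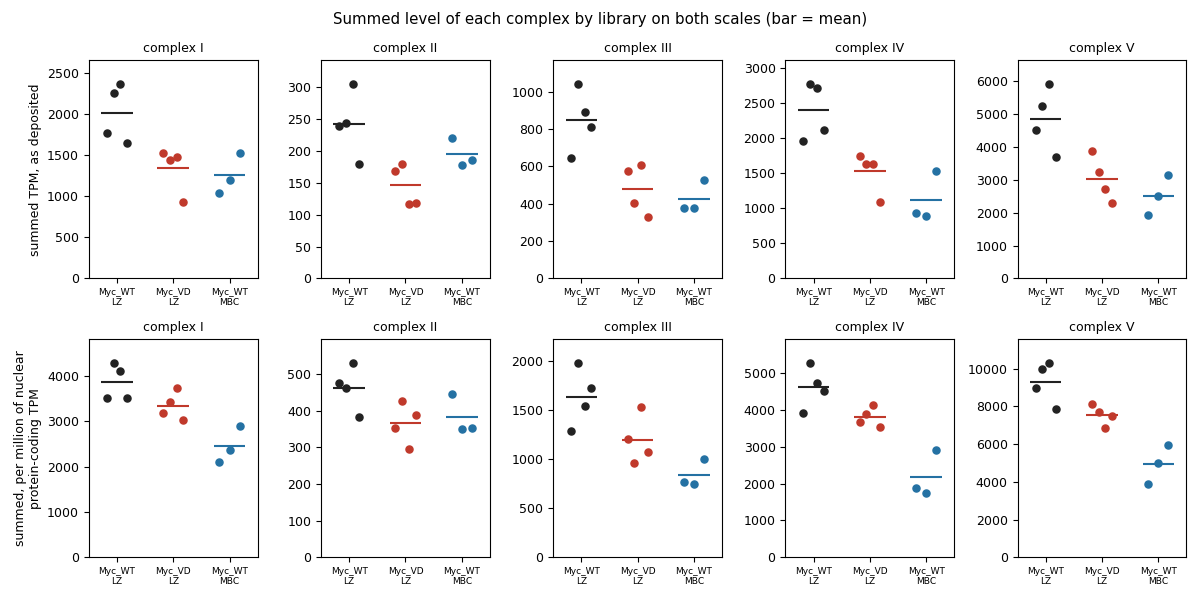
Summed level by library of the genes counted in each complex, without assembly factors, with a bar at the group mean. Values are as deposited (top) and rescaled over nuclear protein-coding genes (bottom). Myc_VD LZ lies below Myc_WT LZ as deposited except in complex V, only just so in complex II, and overlaps it for all 5 complexes in the lower row. MBCs stay below Myc_WT LZ in complexes I, III, IV and V on both scales.

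**Figure D4:**
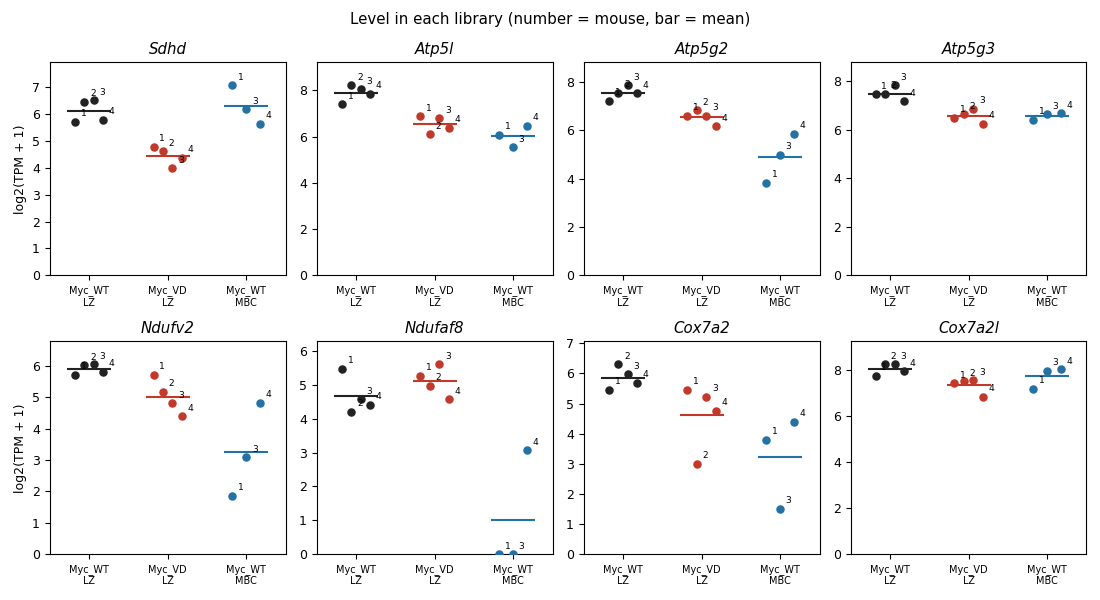
log2(TPM + 1) of 8 genes in each library, numbered by mouse, with a bar at the group mean. Sdhd is low in Myc_VD LZ and not in MBCs, Ndufaf8 is at 0 in 2 MBC libraries and not lower in Myc_VD LZ, and Cox7a2 is below Myc_WT LZ in all MBC libraries while Cox7a2l is not.

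**Figure D5:**
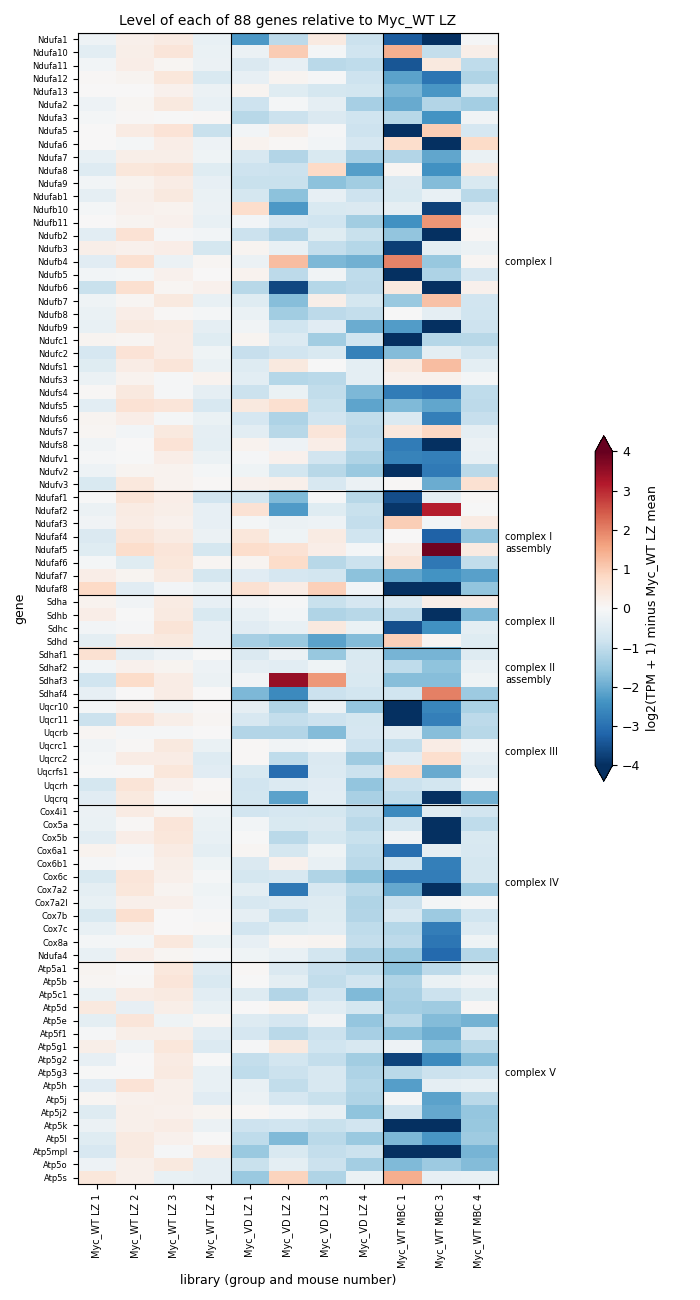
Rows are 88 of the 89 tested genes by complex, columns the 11 libraries, and colour the log2(TPM + 1) minus the mean of the 4 Myc_WT LZ libraries, with the scale ending at 4 in each direction. The MBC columns of mice 1 and 3 hold both the darkest blue cells and single red cells, such as Ndufaf5 in mouse 3, and mouse 4 is paler.

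The genes around the respiratory chain were read from lists chosen with earlier results of these data known. Over all genes 5.04% fell in MBCs. As deposited, 9479 of 12869 genes were lower in Myc_VD LZ and 7323 of 13245 in MBCs. Of 7 electron carriers and partners, with the complex III subunit Cyc1 among them, 7 were lower in Myc_VD LZ as deposited (median -0.38, 0 past the adjusted threshold). Of these, 4 were lower and 3 higher without rRNA genes (median -0.07, against -0.05 over all genes). In MBCs 5 were lower (7 without rRNA genes) and 1 fell, Cycs, which is cytochrome c (-1.88 ± 0.34 (SE), limma adjusted p = 0.014, 8.88 to 16.6 against 36.4 to 55.7 TPM). Of 25 tested assembly factors of complexes III, IV and V, 24 were lower in Myc_VD LZ (median -0.58, 0 past the threshold), 20 without rRNA genes (median -0.31), and 22 in MBCs (median -0.80), where Coa3, Cox11 and Uqcc2 fell. Another list held 18 genes of the Krebs cycle and of pyruvate dehydrogenase (Pdha1, Pdhb, Dlat and Pdhx). Their medians were -0.57 in Myc_VD LZ (-0.27 without rRNA genes, 13 lower) and -0.29 in MBCs, with 0 past the threshold in either. Of the 7 nucleotide carriers and channels all were lower in both comparisons (medians -0.65 and -1.12, and -0.34 and -1.22 without rRNA genes), and Slc25a5, an ADP/ATP carrier, Ucp2 and Vdac3 fell in MBCs.

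The 11 tested regulators of mitochondrial biogenesis had medians of -0.41 in Myc_VD LZ (-0.11 without rRNA genes) and -0.05 in MBCs and 0 past the threshold in either direction. Nrf1 was at 22.6 to 41.2 TPM in Myc_WT LZ, 23.7 to 44.97 TPM in Myc_VD LZ and 17.2 to 23.3 TPM in MBCs, with differences of 0.16 ± 0.27 (SE) and -0.51 ± 0.33 (SE). Gabpa, the ETS factor of respiratory promoters, had differences of -0.69 ± 0.28 (SE) and -0.20 ± 0.30 (SE), and Ppargc1b, a coactivator of these factors, -0.56 ± 0.41 (SE) and 0.65 ± 0.48 (SE). Over all genes tested the medians were -0.31 and -0.14.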

How the data were processed

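The authors aligned reads with STAR 2.5.2a and quantified Ensembl genes with RSEM 1.3.0 on GRCm38, per the labels' processing notes, which also list DESeq2 1.18.1. They deposited TPM with 2 decimals in 1 table, from which the number of reads cannot be read. The depth is therefore unknown, and the precision is that of the spread between mice. Symbols and coordinates came from GENCODE M21 (GRCm38). Of 98 member genes there, 97 were in the table, and 11 genes of the same prefixes that are not protein-coding were not counted as members. The rule, the groups and the gene lists were chosen with earlier results of these data known.

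Groups were compared on log2(TPM + 1) with limma 3.58.1 (R 4.3.3, trended prior), limited to genes whose mean reached 1 TPM, with only the compared groups in the fit and Benjamini-Hochberg adjustment at 0.05 over all genes. Fold differences on this scale understate changes of low genes. Single genes were also tested by two-sided exact permutation (70 or 35 groupings, smallest p 0.0286 for 4 against 4 and 0.0571 for 3 against 4, which cannot pass 0.05). TPM are not counts, so no count test was used. The scripts were tested on simulated data.

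The 356 rRNA genes, nuclear and mitochondrial, were removed and each library rescaled to 1000000 as an alternative. Other alternatives were the pseudocount, filters, scalings, trends on transcript length and GC content, the mouse as block, and leaving out libraries. The median transcript length was 617 bases for members and 1156 bases for tested genes. MBC and LZ libraries of the same mouse pair by the mouse named in the labels, although their deviations from the group means correlated at 0.00507, 0.0115 and -0.0470 (over 13245 genes) in mice 1, 3 and 4. Pseudogene copies were found with blastn 2.17.0 (at least 90% identity over 200 bases), 60 copies of 28 members.

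Genes named with values were catalytic or core subunits, isoform sets, members past the adjusted threshold (up to 15 by p), the 5 highest and 5 lowest differences of each comparison and the 2 most abundant members of each complex. Cox6c, Cox7b2, Ndufa7, Ndufa9, Ndufb4, Ndufb8, Uqcrb, Atp5f1, Atp5j2 and single genes of the other lists were named after their values were seen. One core subunit of the rule, which stays in all counts and sums, is not reported here. All 11 columns of the table were mapped by their labels.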

Additional observations from a re-analysis of the deposited data

Results flagged for a closer look

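Among the Myc_WT and Myc_VD LZ groups of 4 libraries, 136 groups of values were examined for a library far from the other 3, where chance gives about 1 in 20, and 6 stood out. Ndufb6 was at 1.28 TPM in Myc_VD mouse 2 against 12.0 to 12.7 TPM in the other Myc_VD mice. The summed TPM of complex I was 929 in Myc_VD mouse 4, the library with the highest rRNA share (61.3%), against 1436 to 1519 in the others. The other 4 were isoforms listed at 0 in the rest of their group, Cox4i2 at 0.26 TPM and Cox6b2 at 1.13 TPM in Myc_VD mouse 4, and Ndufa4l2 at 3.2 TPM in Myc_VD mouse 2 and at 0.12 TPM in Myc_WT LZ mouse 3.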

How the results depend on the processing

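In Myc_VD against Myc_WT LZ, the count of members past the adjusted threshold was 0 and was 1 among genes with means of 5 TPM or more, 48 at an unadjusted p and 0 to 6 when each library was left out. The median of -0.72 was -0.36 among nuclear protein-coding genes and -0.40 with median ratios, and the summed fold of 0.635 was 0.823 among nuclear protein-coding genes. In MBCs against Myc_WT LZ, the 19 members that fell were 6 with no filter, 29 with quantile normalization, 12 with the transcript length trend removed, 30 with all 3 groups in 1 fit, 4 with the mouse as replicate block in the 3 mice with both libraries (3 in the same libraries with no block), 12 without both sparse MBC libraries, 51 at an unadjusted p, and 3 to 38 when each library was left out. The share of all genes that fell at the adjusted threshold moved too, from 5.04% to 1.16% with no filter, 7.44% with quantile normalization, 4.63% with the length trend removed and 7.71% with all 3 groups. The median of -1.29 was -1.69 in mice of 1 name prefix and -0.62 without both sparse libraries. The removal of both sparse libraries, the GC trend, the added copies and the removal of Gm10800 were chosen after seeing the data, and the first of these leaves 1 MBC library, assumed to vary like the LZ libraries. A median uses no threshold, so the unadjusted p gave no value for it. The causes were not tested beyond what each setting's construction shows, such as fewer samples.

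Some small Myc_VD differences changed sign, given here without rRNA genes, among nuclear protein-coding genes, with median ratios and with quantile normalization. Atp5g1 went from -0.27 to 0.04, 0.12, 0.08 and 0.06, Cox8a from -0.27 to 0.04, 0.12, 0.07 and 0.03, Ndufaf4 from -0.05 to 0.25, 0.32, 0.26 and 0.20, and Ndufs1 from -0.13 to 0.18, 0.25, 0.21 and 0.11. Ndufs8 went from -0.19 to 0.12, 0.19, 0.15 and 0.06, Sdhc from -0.15 to 0.15, 0.23, 0.18 and 0.11, and Ndufa10 from -0.02 to 0.29, 0.36, 0.31 and 0.23, and to 0.03 without the length trend. With the first 3 settings Ndufa12 went from -0.28 to 0.03, 0.10 and 0.06 and Uqcrc1 from -0.25 to 0.05, 0.13 and 0.08. In MBCs quantile normalization moved Ndufs3 from 0.09 to -0.13 and Sdhd from 0.18 to -0.02, and removing the length trend moved Sdha from -0.02 to 0.23, Sdhaf4 from -0.07 to 0.16 and Uqcrc2 from -0.05 to 0.14. Leaving out each library in Myc_VD gave -0.37 to 0.24 for Ndufa10, -0.24 to 0.21 for Ndufaf4, -0.31 to 0.03 for Ndufs1, -0.34 to 0.06 for Ndufs8 and -0.33 to 0.02 for Sdhc. In MBCs it gave -0.32 to 0.57 for Atp5s, -0.36 to 0.82 for Ndufa10, -1.95 to 1.57 for Ndufaf2, -1.96 to 0.29 for Ndufb6, -0.03 to 0.79 for Ndufs1, -0.16 to 0.25 for Sdha, -1.12 to 0.62 for Sdhaf4, -0.21 to 0.51 for Sdhd, -0.55 to 0.08 for Uqcrc1, -0.41 to 0.15 for Uqcrc2 and -1.26 to 0.11 for Uqcrfs1. None of these reversals concerned a member past the adjusted threshold in either comparison, except that Ndufa12, past it in MBCs, changed sign in Myc_VD.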
